A study of Mus musculus with 12 samples.

Results

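The genes described here encode proteins of synaptic vesicles and of their docking, fusion and recycling, and some SNAREs of endosomes and other internal membranes. The 34 members were chosen by symbol, with earlier results of these data known. They are 3 synaptotagmins, 8 SNAREs, 6 SNARE regulators, 6 vesicle proteins, 9 genes of clathrin-mediated endocytosis and 2 synucleins. All 34 were among the 15391 genes counted, and 33 of them passed the filter on low counts. The exception was Sv2a, whose counts are given apart from the tested members.

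RNA was measured in primary sensory neurons cultured from the dorsal root ganglia of adult mice of the genotype RPL22HA+/+;Advillin-Cre+. In this RiboTag design Cre driven by Advillin, a gene of peripheral sensory neurons, switches on an HA-tagged ribosomal protein Rpl22, so that an antibody against HA precipitates the ribosomes of Cre-expressing cells with their mRNA. All mice had been preconditioned by an injury of the sciatic nerve before culture, and no uninjured group was analysed here. The cultures received an adeno-associated virus, either a control or one carrying a short hairpin RNA against Larp1 (shLarp1), and for each virus the HA immunoprecipitate (IP) and the input RNA were sequenced. This gave an IP group and an input group for the control virus and the same for shLarp1, 4 groups with 3 columns of counts in each. The labels word the control virus as AAV-shControl for input and AAV-Control for IP; both were taken as the control virus. The labels name cultured neurons as the source, whereas the extraction text speaks of fresh ganglia. They do not say how many animals or cultures a group holds.

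Fusion of a synaptic vesicle is driven by SNAREs: a vesicle SNARE of the synaptobrevin (VAMP) family zips together with syntaxin and SNAP-25 on the plasma membrane. Synaptotagmins sense the calcium that triggers fusion, complexins hold the assembled complexes ready, and NSF with its SNAP adaptors pulls spent complexes apart. Clathrin triskelia, the AP-2 adaptor, amphiphysins and dynamin then retrieve the membrane. Dorsal root ganglion neurons make this machinery in the cell body and ship it down the axon to terminals in the spinal cord and skin.

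Total counts ran from 3126591 to 3177552 over the IP columns and from 564095 to 760140 over those of input. The 3 columns of a group were about as alike as sampling alone would make them. Their totals varied with an SD of 266 to 910 counts, against 751 to 1782 for counting error, and over genes with at least 30 counts their chi-square, divided by its degrees of freedom, averaged 1.24 to 1.43. Each group was for that reason taken as 1 sample (n = 1), so no p-value compares the conditions and no difference has a replicate check. In what follows, called means that the exact 95% interval of a gene's ratio lies wholly past 1.5-fold, in the direction given. These intervals cover counting error only, and PCR copies are not independent molecules. Larp1 had 442 counts in control IP and 149 in shLarp1 IP, 3.30-fold lower (log2 ratio -1.72), and 18 against 8 in input. All 12 neuron markers were counted in every group. Their summed level in CPM (the count over the effective library size, scaled to 1e6) was 5006 in control IP and 5207 in shLarp1 IP, against 1907 in control input and 1047 in shLarp1 input. Summed fibroblast markers stood at 380 and 325 CPM in IP and 1309 and 1499 CPM in input, a difference that came from Fn1 and Sparc: without them the sums were 80.1 and 88.0 CPM in IP and 81.8 and 79.2 CPM in input.

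Most of the vesicle genes were higher in the ribosome-bound RNA of Cre-expressing cells than in the RNA of the whole culture. With the control virus 23 of the 33 tested members were called higher in IP than in input and 1, Vamp3, was called lower; over all 8773 genes tested, 23.0% were called higher and 12.5% lower. With shLarp1 the counts were 25 higher and 1 lower, again Vamp3, against 25.9% and 13.1% of 8771 genes. The median log2 ratio of the members was 1.73 with the control virus and 2.04 with shLarp1, beside 0.71 and 0.93 over all genes. With each virus 29 of the 33 lay above the median of all genes. A total of 20 members were called higher with both viruses, 3 with the control virus only and 5 with shLarp1 only. No test compared these sets. Those with the control virus only were Syt1, Stx1a and Cadps, and those with shLarp1 only Snap47, Stx7, Cplx2, Napa and Ap2m1. Each of these single-virus calls was lost when some input column of its virus was left out, as were some calls made with both. The sizes depend on the scaling between IP and input. With upper-quartile factors 9 and 15 members were called higher, beside 1293 and 1328 of all genes. The median of all genes, like every member's ratio, then moved by -0.49 and -0.50. The members' median lay 1.02 and 1.10 above that of all genes, a distance that no scaling can alter. In bulk RNA, fewer cells of a type and less RNA per cell cannot be told apart. The depth of input limits these ratios: 26 of the 34 members had fewer than 30 counts in each input group, whereas 1, Sv2a, had so few in each IP group.

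**Figure D1:**
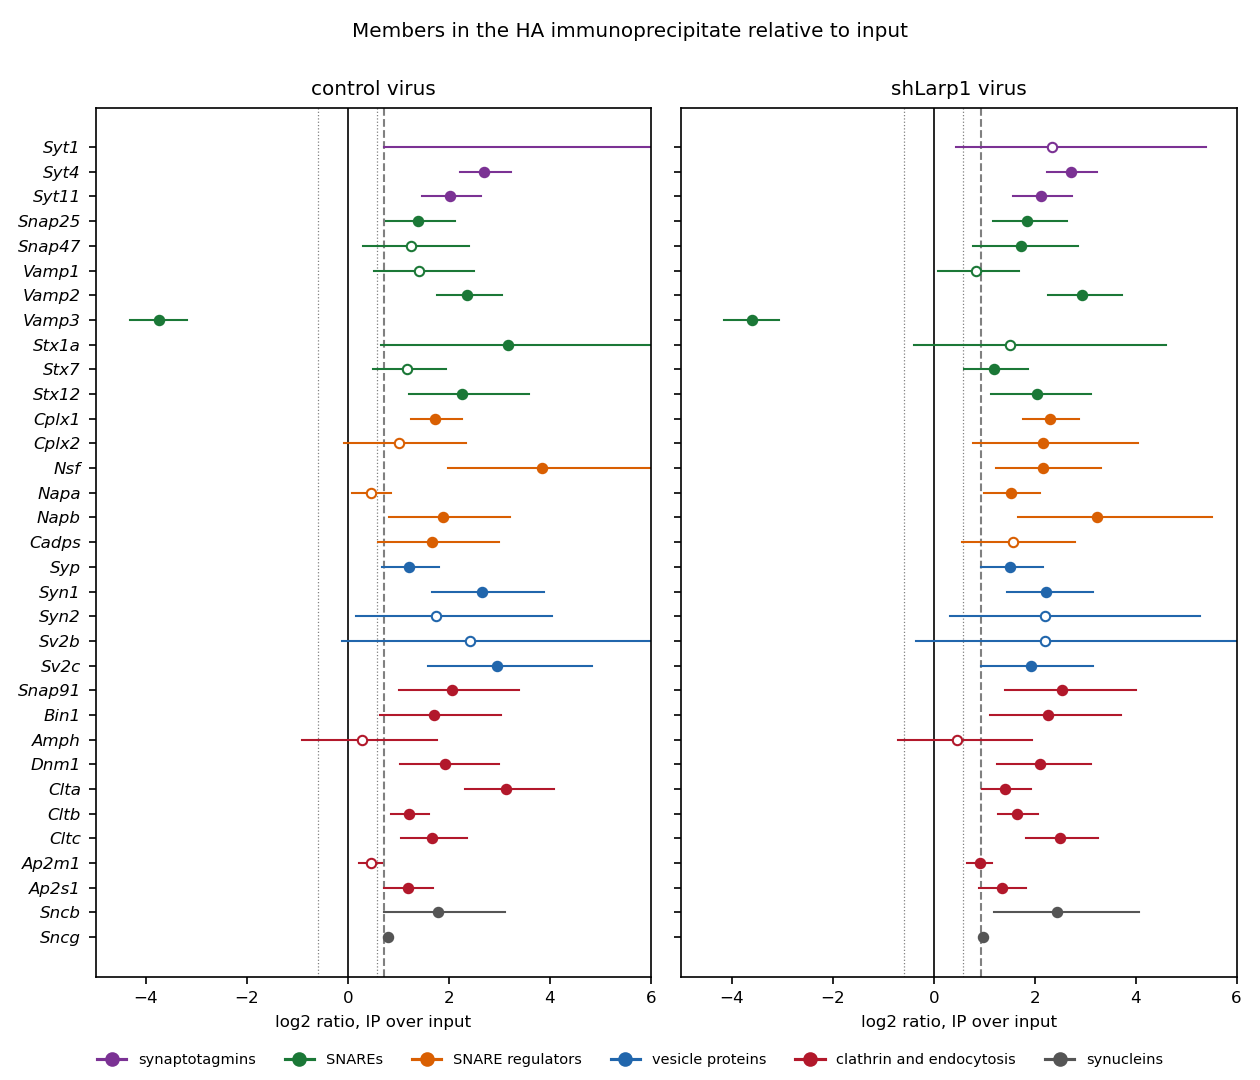
IP over input for the 33 tested members, coloured by role, with the control virus (left) and shLarp1 (right). Points are log2 ratios of counts scaled by effective library size (n = 1 per group), filled where called; bars are exact 95% counting intervals, cut off at the edge of the axis, dotted lines mark 1.5-fold and the dashed line the median of all genes. Syt1 has a bar without a point with the control virus, for want of input counts, and Vamp3 stands at -3.75 and -3.61, left of every other member.

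The synaptotagmins were all on the IP side. Syt4, which binds membranes but lacks the calcium switch of Syt1 and rises in active neurons, was counted 785, 815 and 799 times in the control IP columns and 12, 14 and 8 times in control input. The values were 869, 818 and 868 in shLarp1 IP and 12, 13 and 12 in shLarp1 input. The log2 ratio of IP to input was 2.70 (95% interval 2.22 to 3.24) and 2.72 (2.25 to 3.23), values that differed by less than their counting error. Syt11, another synaptotagmin that does not sense calcium, had ratios of 2.02 and 2.13. Syt1, the calcium sensor of fast release, had 25, 23 and 19 counts in control IP and 0 in all 3 control input columns, and was called. Its 67 IP counts, taken against 3 counts over the input group, would make it 2.06-fold higher (log2 1.05). Its exact interval on the log2 scale starts lower, at 0.71. The call was lost when any 1 of the control input columns was left out. With shLarp1 it had 106 IP and 2 input counts and its log2 ratio of 2.34 (0.45 to 5.40) was not called.

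Among the 8 SNAREs, 4 were called higher in IP with the control virus and 5 with shLarp1. Vamp2 (synaptobrevin 2), the main vesicle SNARE of transmitter release, was counted 407, 405 and 413 times in control IP and 10, 6 and 6 times in control input, and 481, 436 and 452 times in shLarp1 IP against 7, 4 and 6 in shLarp1 input. Its log2 ratio was 2.36 (1.76 to 3.04) and 2.94 (2.26 to 3.72). Snap25, its partner on the plasma membrane, had ratios of 1.39 and 1.85, both called. Snap47, a SNAP-25 relative of internal membranes, was 2.38-fold higher with the control virus, not called, and 3.29-fold higher with shLarp1, called. Vamp1, the synaptobrevin best known from motor terminals, had 1.41 and 0.83 and was not called. Of the syntaxins, the endosomal Stx12 had 2.27 and 2.04, both called, and Stx7, of late endosomes, had 1.17 and 1.20, the second called. Stx1a, the syntaxin of transmitter release, had 1 control input count and 2 in shLarp1 input, and its ratios of 3.16 (0.65 to 8.48), called, and 1.52 (-0.40 to 4.59), not called, rest on these few counts.

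Vamp3 (cellubrevin), the VAMP of recycling endosomes that most non-neuronal cells use, was the member that went the other way. Its columns held 15, 16 and 18 counts in control IP and 14, 19 and 23 in shLarp1 IP, against 19, 16 and 26 in control input and 23, 14 and 28 in shLarp1 input. About as many counts thus came from the much smaller input libraries as from the IP libraries. The log2 ratio was -3.75 (-4.32 to -3.19) with the control virus and -3.61 (-4.15 to -3.07) with shLarp1, which is 13.5-fold and 12.2-fold lower in IP. Averaged over both viruses it was -3.68, and 3.04% of the 7228 genes with such a mean stood at or below it. Vamp3 was 1 of 752 genes with a mean below -2, and no other member was among them. Set against Vamp2, chosen after the values were seen, Vamp3 gave 0.0400 counts per Vamp2 count in control IP (95% interval 0.0294 to 0.0532) and 0.0409 in shLarp1 IP. In input the ratio was 2.77 (1.68 to 4.74) and 3.82 (2.21 to 6.96). Gene length and library scaling cancel when this ratio is compared between libraries.

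With the other genes of the fusion families added, the VAMP and SNAP-25 families held paralogs called in both directions. The syntaxins and synaptotagmins did not. Of 6 tested VAMP genes, 1 was called higher in IP (Vamp2) and 3 lower with both viruses. Besides Vamp3 these were Vamp5, a VAMP best known from muscle, at -1.78 and -1.46, and Vamp8, the VAMP of late endosomes and of secretion in non-neuronal cells, at -1.09 and -1.12. Of the 4 SNAP-25 relatives, Snap23, the form found in most tissues, was called lower at -1.93 and -3.09. Its counts were 386 in control IP, 136 in control input, 221 in shLarp1 IP and 179 in shLarp1 input. Stxbp2, a syntaxin-binding protein of epithelial and blood cells, was called lower at -1.41 and -2.66. None of 9 tested syntaxins and none of 8 tested synaptotagmins was called lower. Among the syntaxins, Stx8 lay below 0 with the control virus, at -0.39 (-0.74 to -0.02), and at 0.31 with shLarp1. Summed markers of glia stood at 554 and 511 CPM in IP and 579 and 604 in input. Macrophage markers stood at 84.7 and 83.4 CPM in IP and 160 and 107 in input, and vessel markers at 91.2 and 79.3 in IP and 151 and 99.9 in input. Of the fibroblast markers 2 of 9 tested, Fn1 and Sparc, were called lower in IP with each virus. Of 11 tested glia markers 2 were called higher and 1 lower with the control virus, and 1 and 3 with shLarp1. Of 6 macrophage markers 3 were called lower with the control virus and 1 with shLarp1, and of 3 vessel markers 1 and 0. Over all genes 12.5% and 13.1% were called lower. The part of other cell types in the ratios of Vamp3, Vamp5, Vamp8, Snap23 and Stxbp2 was not tested.

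**Figure D2:**
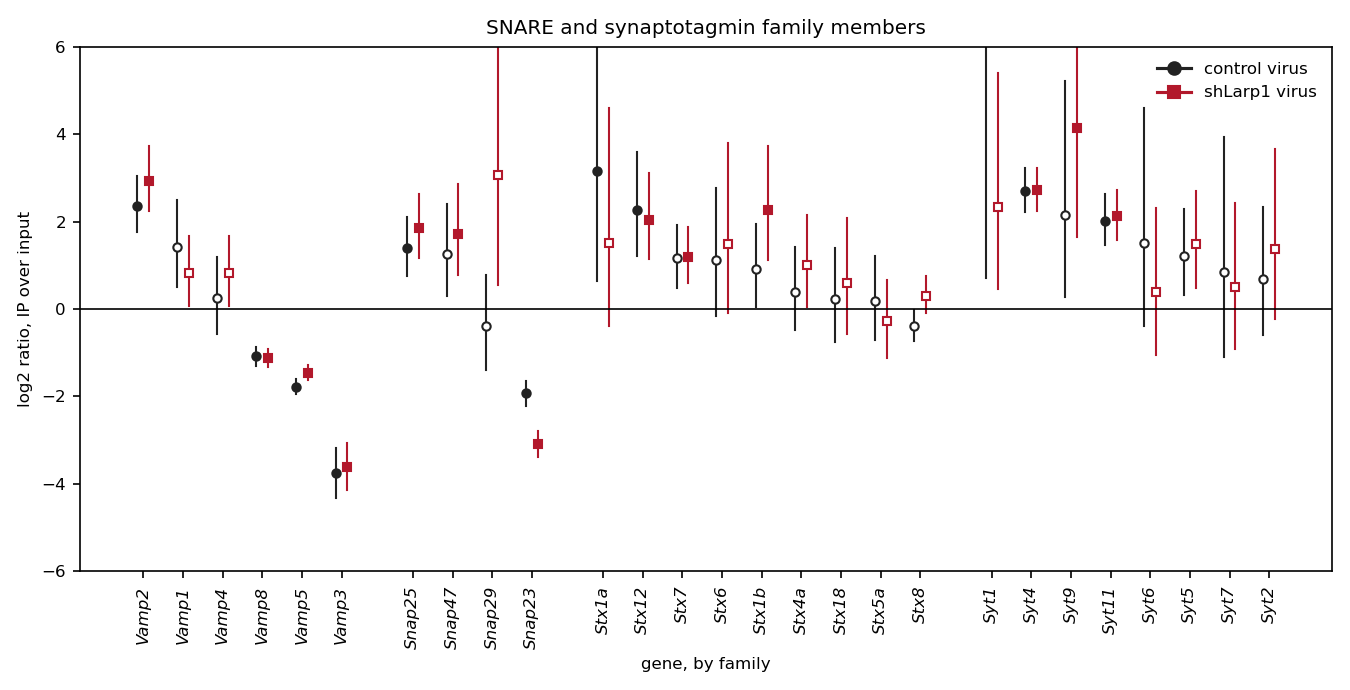
IP over input for the VAMP, SNAP-25, syntaxin and synaptotagmin families, members and other pathway genes together. The vertical axis is the log2 ratio with the control virus (circles) and shLarp1 (squares), n = 1 per group, filled where called, and bars are exact 95% counting intervals, cut off at the edge of the axis. Vamp2 and Snap25 lie above 0 and Vamp3 and Snap23 below it.

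The regulators of SNARE complexes were called higher in IP in 4 of 6 cases with the control virus and 5 of 6 with shLarp1. Cplx1, a complexin that binds the assembled SNARE complex, had 416, 437 and 407 counts in control IP against 13, 12 and 10 in input, and log2 ratios of 1.73 and 2.30 (1.77 to 2.89), both called. Cplx2, its close relative, had 1.00 and 2.16, the second called. Nsf, the ATPase that disassembles SNARE complexes, had 3.85 (1.99 to 6.91) and 2.17 (1.23 to 3.31), both called, with 2 and 9 input counts behind them. Napb, its brain-enriched adaptor beta-SNAP, had 1.88 and 3.22. Napa, the adaptor alpha-SNAP that all cells use, stood lower at 0.45 (0.07 to 0.85) with the control virus, not called, and 1.52 (1.00 to 2.10) with shLarp1, called. Cadps, which primes dense-core vesicles, had 1.66, called, and 1.57, not called.

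Of the 5 tested vesicle proteins, the same 3 were called higher with each virus. Syn1, a synapsin that tethers vesicles to one another, had 548 and 640 IP counts and 8 and 13 input counts, with log2 ratios of 2.66 (1.67 to 3.88) and 2.23 (1.45 to 3.15). Syp, the vesicle membrane protein synaptophysin, had 1.21 and 1.51. Sv2c, one of 3 vesicle glycoproteins of the SV2 family, had 2.96 and 1.93. Syn2 (1.75 and 2.21) and Sv2b (2.42 and 2.19) had at most 3 input counts in a group and were not called. Sv2a had 24 counts in control IP and 7 in shLarp1 IP and 0 in all 6 input columns, which allows up to 3 counts per group, so no ratio to input was taken. The synapsin promoter is a textbook neuronal promoter, and a stretch of it is shown because Syn1 was the single member whose RefSeq promoter (GRCm38.p6, 250 bases before to 50 after the start) held the left portion of the RE1 element bound by REST, a repressor of neuronal genes. The stretch lies at chrX:20921059-20921158 on the minus strand, 240 to 141 bases before the start; the capitals mark the RE1 left portion TTCAGCACC and a cyclic AMP response element TGACGTCA.
Syn1: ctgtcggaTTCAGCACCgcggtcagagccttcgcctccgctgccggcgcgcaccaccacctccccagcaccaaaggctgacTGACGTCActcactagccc
Promoters were held for 29 of the 34 members, in 36 windows, and both strands were searched. The RE1 left portion was in 1 of 36 windows (2.78%), beside 0.371% of all 32851 windows of that length. TGACGTCA was in 3 (8.33%, those of Syn1, Cltb and Napa), beside 1.79%. The GC box GGGCGG was in 24 (66.7%), beside 35.7%. These matches describe the letters and say nothing of binding.

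Of the endocytosis genes, 7 of 9 were called higher in IP with the control virus and 8 of 9 with shLarp1. Clta, Cltb and Cltc, the light chains a and b and the heavy chain of clathrin, had 3.13, 1.22 and 1.67 with the control virus and 1.42, 1.65 and 2.50 with shLarp1. Clta thus led the clathrin genes with the control virus, on 12 input counts, and came last with shLarp1. With the control virus its interval (2.32 to 4.08) just overlapped that of Cltc (1.06 to 2.35). With shLarp1 its interval (0.95 to 1.93) overlapped that of Cltb (1.27 to 2.07), so their order was within counting error. Dnm1, the neuronal dynamin that cuts vesicles from the membrane, had 1.92 and 2.10. Snap91 (AP180), which sets the size of clathrin coats at synapses, had 2.07 and 2.54, and Bin1, an amphiphysin that many tissues make, had 1.71 and 2.25. Amph itself, the neuronal amphiphysin, had 79 and 87 IP counts against 6 and 6 in input, and its ratios of 0.28 (-0.90 to 1.77) and 0.47 (-0.71 to 1.95) were not called. Of the AP-2 adaptor, Ap2s1 had 1.18 and 1.34, both called, and Ap2m1 had 0.45 (0.23 to 0.68) and 0.91 (0.67 to 1.15), the second called. With upper-quartile factors the ratios of Amph, Napa and Ap2m1 fell below 0 with the control virus, and that of Amph also with shLarp1.

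The synucleins, small presynaptic proteins that bind vesicle membranes, were called higher with both viruses, but by different amounts. Sncg, the synuclein typical of peripheral neurons, was counted 11516, 11082 and 11375 times in control IP and 611, 603 and 595 times in control input. In shLarp1 IP it had 12961, 13072 and 13051 counts, and in shLarp1 input 607, 652 and 635. Sncg alone held 62.8% and 63.5% of all member counts in IP and 71.6% and 73.3% in input. Its log2 ratio was 0.80 (0.73 to 0.86) and 0.98 (0.91 to 1.04), near the medians of all genes. Sncb, the synuclein of presynaptic terminals in brain, had 1.78 (0.72 to 3.11) and 2.44 (1.20 to 4.07).

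The pathway has other genes that are no members, and 81 of these were tested. Of them 15 were called higher in IP with the control virus and 6 lower, with a median of 0.92; with shLarp1 the counts were 18 and 8 and the median 1.11. With neither virus were they called higher, or lower, at a larger share than all genes (23.0% and 12.5%, and 25.9% and 13.1%). The largest ratios with the control virus were Scamp1 (4.55, from 1 input count), Stam (3.16, from 2), Syngr3 (2.94, from 2) and Dnm3 (2.54, from 4). Pacsin1 and Dnajc6, which had 0 control input counts, are left out of this order. The lowest were Eps15l1 (-2.44) and Fcho2 (-2.24), which start clathrin pits, and Snap23 and Vamp5. With shLarp1, the highest of those called with input counts were Syt9 (4.14), Unc13a (3.54), Hip1r (3.34) and Napg (2.83). The first 3 of these rest on 1 input count each and Napg on 5. The lowest were Snap23, Eps15l1 (-3.07), Fcho2 (-2.93) and Stxbp2.

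Larp1 encodes a protein that binds the mRNA cap, and the comparison of shLarp1 with control asks which mRNAs depend on it. No member was called higher or lower in shLarp1 IP against control IP, while 0.719% of the 8766 genes tested were called higher and 4.40% lower. The 5 members farthest from 0 were Stx1a, Syt1, Sv2b, Cltc and Syn2. The members' median log2 ratio was 0.03, beside -0.08 over all genes, and the values ran from -0.85 to 0.51. A total of 19 members lay above 0 and 14 below, a split that moved to 25 and 8 with upper-quartile factors or total counts. The interval lay wholly above 0 for 6 members, against 13.4% of all genes, and wholly below 0 for 4, against 29.6%. The members' intervals reached a median of 0.20 to either side, so counting error was small beside 1.5-fold for most of them.

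**Figure D3:**
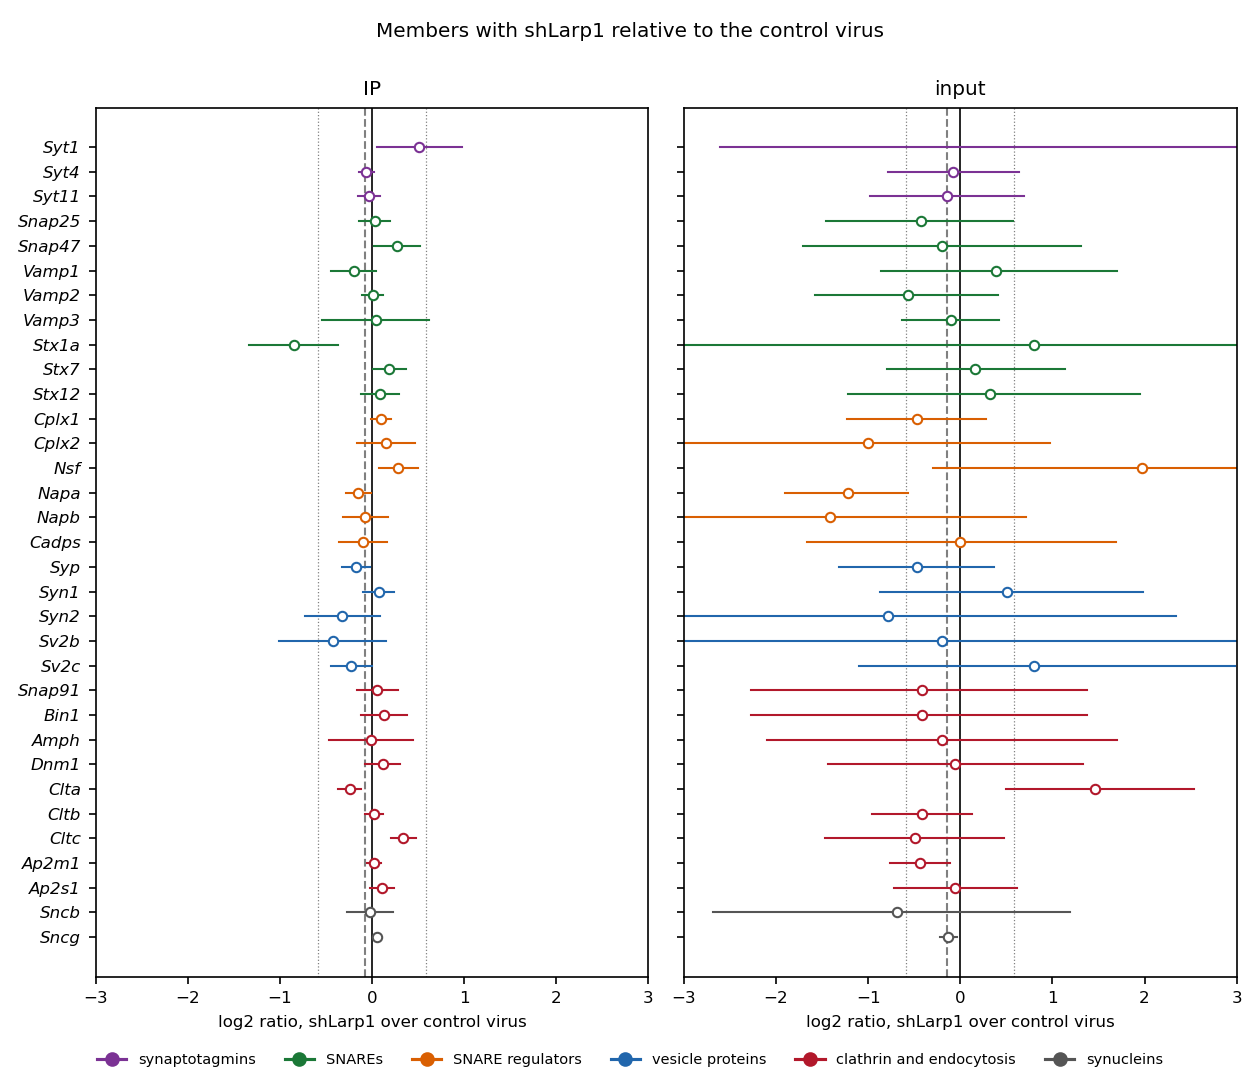
shLarp1 over control for the 33 tested members, in IP (left) and input (right), coloured by role. Points are log2 ratios (n = 1 per group), open because none was called; bars are exact 95% counting intervals, cut off at the edge of the axis, dotted lines mark 1.5-fold and the dashed line the median of all genes. In IP the members lie between -0.85 and 0.51; in input the bars are wider, and Clta lies at 1.47.

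Stx1a and Syt1 marked the ends of that range. Stx1a was counted 32, 28 and 37 times in control IP and 17, 18 and 25 times in shLarp1 IP, a log2 ratio of -0.85 (-1.33 to -0.37). All 3 shLarp1 columns lay below all 3 control columns, but the interval reaches inside 1.5-fold. Set against Snap25, which had 569 and 645 IP counts, the ratio of Stx1a to Snap25 counts was 0.170 (0.136 to 0.212) with the control virus and 0.0930 (0.0702 to 0.121) with shLarp1; this pair was chosen after the values were seen. Syt1 had 25, 23 and 19 counts in control IP and 33, 40 and 33 in shLarp1 IP, with a log2 ratio of 0.51 (0.05 to 0.97), and its columns did not overlap either. Columns did not overlap for 10 members in IP and for 43.2% of all genes. The share of members with separated columns was thus no larger than that of all genes.

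The remaining SNAREs and their regulators had values near 0 in IP. Vamp2 was at 0.01 (-0.10 to 0.12), Snap25 at 0.03 (-0.14 to 0.19) and Syt4 at -0.06 (-0.14 to 0.02). Intervals on the positive side belonged to Snap47 (0.27), Stx7 (0.19) and Nsf (0.29). Napa was at -0.15 (-0.28 to -0.01). Vamp3, with 49 and 56 counts, was at 0.04 with an interval from -0.54 to 0.62, too wide to place it. Sncg, the member with the most counts, was at 0.05 (0.03 to 0.07), and its shLarp1 columns all lay above its control columns; with upper-quartile factors the value was 0.18.

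No vesicle protein that was tested was called in IP. Their median in IP was -0.22, and 4 of the 5 lay below 0, as did 5213 of all 8766 genes: Sv2b at -0.43, Syn2 at -0.32, Sv2c at -0.22 and Syp at -0.17. Only the interval of Syp (-0.32 to -0.02) excluded 0 among them. Syn1 was the exception at 0.07. Sv2a, under the count filter, had 6, 9 and 9 counts in control IP and 2, 0 and 5 in shLarp1 IP, a log2 ratio of -1.93 (-3.39 to -0.67). It would be called lower if the filter were dropped, on these few counts. With upper-quartile factors the values of the 5 tested proteins rise by 0.13, which takes none of the 4 across 0.

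The clathrin chains lay on different sides of 0 in IP, none of them called. Cltc, the heavy chain, was counted 255, 269 and 233 times in control IP and 364, 364 and 337 times in shLarp1 IP, a log2 ratio of 0.34 (0.20 to 0.48). Clta was counted 363, 376 and 395 times in control IP and 362, 346 and 358 times in shLarp1 IP, a ratio of -0.24 (-0.36 to -0.12). Upper-quartile factors raise every IP ratio by 0.13, and the interval of Clta then includes 0. Cltb was at 0.02 (-0.08 to 0.12). In both Cltc and Clta the columns of the groups were separated, in opposite directions, though by less than 1.5-fold. The count ratio of Clta to Cltc, which no scaling affects, was 1.5 (1.37 to 1.64) with the control virus and 1.00 (0.919 to 1.09) with shLarp1, and the pair was chosen after the values were seen. Of the other endocytosis genes all but Amph (-0.01) lay above 0, from 0.03 for Ap2m1 to 0.13 for Bin1, and none of their intervals excluded 0.

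Starts of the clathrin genes are shown because Larp1 is known to bind mRNAs that begin with a C followed by a run of pyrimidines, the terminal oligopyrimidine (TOP) motif. Each window runs from 30 bases before to 15 after an annotated RefSeq start (GRCm38.p6), and the capitals are the first 5 bases from that start. Clta has 2 annotated starts, at chr4:44004413-44004457 and chr4:44012640-44012684 on the plus strand; Cltb lies at chr13:54611359-54611403 and Cltc at chr11:86757553-86757597, both on the minus strand. Stx12 (chr4:132884444-132884488, minus strand) and Amph (chr13:18948321-18948365, plus strand) are given as the other members with a TOP-like start.
Clta start 1: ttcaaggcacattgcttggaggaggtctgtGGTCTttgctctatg
Clta start 2: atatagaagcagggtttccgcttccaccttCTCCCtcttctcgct
Cltb: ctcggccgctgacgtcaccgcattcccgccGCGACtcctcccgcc
Cltc: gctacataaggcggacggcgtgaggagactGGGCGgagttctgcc
Stx12: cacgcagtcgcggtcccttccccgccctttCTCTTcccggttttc
Amph: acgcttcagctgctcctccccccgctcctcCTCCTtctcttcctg
A TOP-like start, taken as a C followed by 4 pyrimidines, was found in 3 of 36 member windows (8.33%), those of Amph, Stx12 and the second start of Clta, and in 2.51% of all windows. It was found in 13 of 66 windows of ribosomal protein genes (19.7%), the genes best known for the motif, so that most annotated starts of known TOP mRNAs did not show it. In IP the values of the 3 genes were -0.24 for Clta, 0.08 (-0.12 to 0.29) for Stx12 and -0.01 (-0.47 to 0.45) for Amph. The deposited counts are per gene and do not tell the starts of Clta apart.

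In input RNA the members were counted too thinly for most comparisons. None was called higher or lower with shLarp1 against control, beside 0.171% and 1.01% of 7588 genes (13 and 77, which became 181 and 35 with the size factors of DESeq2), and the intervals reached a median of 1.33 to either side. The median log2 ratio was -0.20, beside -0.14 over all genes, and 9 of 33 lay above 0 and 24 below; with the size factors of DESeq2 the split was 19 and 14. The interval lay wholly above 0 for 1 member, Clta, beside 9.01% of all genes, and wholly below 0 for 3, Napa, Ap2m1 and Sncg, beside 9.16%. Columns did not overlap for 6 members and for 24.2% of all genes. Summed neuron markers were lower in shLarp1 input, at 1047 against 1907 CPM, which came mostly from Uchl1 (935 against 1772 counts); without Uchl1 they were 380 against 457 CPM. The members without Sncg summed to 492 against 588 CPM. The part of that marker difference in the members' input values was not tested.

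Clta stood out among the members in input. It was counted 4, 6 and 2 times in the control columns and 14, 11 and 13 times in the shLarp1 columns, a log2 ratio of 1.47 (0.50 to 2.54). Every shLarp1 column lay above every control column. The other clathrin chains did not share the direction: Cltb had 21, 19 and 24 against 27, 16 and 12 counts, a ratio of -0.42 (-0.96 to 0.13), and Cltc had 22 against 18 counts, -0.49 (-1.47 to 0.48). Clta counts per Cltb count were 0.188 (0.0921 to 0.351) in control input and 0.691 (0.445 to 1.06) in shLarp1 input. Clta was called higher with upper-quartile factors or the size factors of DESeq2, and when control input 2, shLarp1 input 2 or shLarp1 input 3 was left out.

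Napa and Nsf, which work together, had opposite values in input. Napa was counted 21, 17 and 23 times with the control virus and 3, 9 and 18 times with shLarp1, a log2 ratio of -1.22 (-1.90 to -0.57). The shLarp1 columns of Napa were less alike than counting error allows, with a chi-square of 11.4 on 2 degrees of freedom. Without shLarp1 input 3 the ratio was -1.74 and Napa was called lower, whereas without shLarp1 input 1 it was -0.57 (-1.28 to 0.11), an interval that includes 0. Nsf had 2 counts against 9, a ratio of 1.97 whose interval from -0.30 to 5.22 includes 0. Ap2m1, the medium chain of AP-2, had 65, 58 and 50 counts against 55, 41 and 51, with a ratio of -0.43 (-0.76 to -0.11). The size factors of DESeq2 raise every input ratio by 0.21, and the interval of Ap2m1 then includes 0. Sncg was at -0.13 (-0.22 to -0.04) and turned to 0.08 with the size factors of DESeq2.

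The interaction of virus and fraction asks whether the knockdown ratio in IP differs from that in input. It called 1 member lower, Clta, and none higher, beside 5.57% and 1.38% of 7588 genes (423 and 105, which became 139 and 396 with total counts); the members' median was 0.18 and that of all genes 0.07. For Clta the log2 difference was -1.67 (-2.60 to -0.74), a 3.18-fold lower IP-to-input ratio with shLarp1. It lay between -2.16 and -1.47 when each of the 12 columns was left out in turn, and in 11 of these 12 settings it was called. Leaving out an IP column hardly moved it (-1.67 to -1.61), so only the settings without an input column probe the call. Without control input 3 it was -1.47 (-2.46 to -0.48) and not called, nor was it called with total counts. On the other side the interval excluded 0 for 3 members, none of them called. Napa was at 1.06 (0.42 to 1.70), without shLarp1 input 3 it was 1.63 and called, and without shLarp1 input 1 it was 0.49 (-0.17 to 1.15). Ap2m1 was at 0.46 (0.13 to 0.78) and Sncg at 0.18 (0.09 to 0.28). The size factors of DESeq2 move every interaction value by -0.20. Sncg then became -0.02, and the interval of Ap2m1 included 0. Cltc was at 0.82 (-0.08 to 1.72). The values of Clta, Napa and Cltc rest on the few input counts given above.

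**Figure D4:**
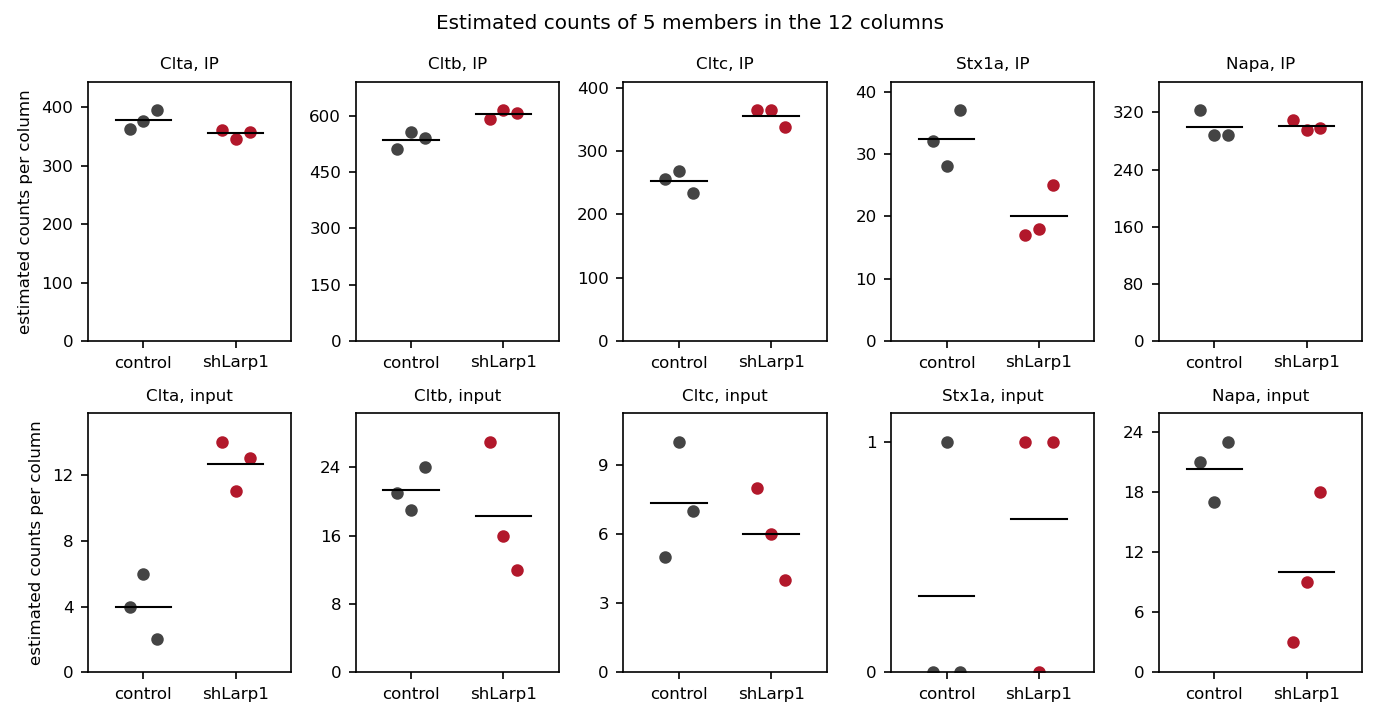
Estimated counts of Clta, Cltb, Cltc, Stx1a and Napa in the 12 columns, not scaled for depth, in IP (top) and input (bottom). Each panel has its own linear axis from 0, points are single columns and lines the group means; the 3 columns of a group were counted as 1 sample. Clta has 2 to 6 counts in the control input columns and 11 to 14 in shLarp1 input, while its IP columns lie between 346 and 395.

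If the columns of a group are treated as replicates, more members are called. The quasi-likelihood test of edgeR, adjusted over all 8773 genes, then called Cltc and Sncg higher and Stx1a and Clta lower in IP, beside 6.79% and 21.0% of all genes. In input it called Clta higher and Napa lower, beside 5.29% and 3.59%. For the interaction it called Napa and Sncg higher and Clta lower, beside 3.80% and 7.32%. These calls do not compare the conditions beyond these samples.

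Outside the 34 members, 1 of 81 tested genes of the pathway was called higher in IP after knockdown and 3 lower, with a median of -0.06. These shares lie near the 0.719% and 4.40% of all genes. Syn3, another synapsin, had 200 counts in control IP and 87 in shLarp1 IP, a log2 ratio of -1.35 (-1.73 to -0.98). Snap23 fell from 386 to 221 counts (-0.96, interval -1.20 to -0.71) and Stxbp2 from 804 to 512 (-0.80, -0.97 to -0.64). Scamp4, a secretory carrier membrane protein, rose from 34 to 89 counts (1.24, 0.65 to 1.85) with 0 counts in input. In input none of 80 was called. For the interaction Snap23 (-1.15) and Stxbp2 (-1.25) were called lower and Scamp2 (2.50, from 8 and 3 input counts) higher. Snap23 and Stxbp2, both with low IP-to-input ratios, were called lower with shLarp1 in IP and not in input, where their ratios were 0.20 (-0.13 to 0.53) and 0.45 (0.18 to 0.71). The 752 genes with a mean log2 IP-to-input ratio below -2 had medians of -0.48 in IP, 0.43 in input and -0.91 for the interaction, and the part of that class in these values was not tested.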

How the data were processed

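RNA of 12 samples in 4 groups was sequenced as nanopore cDNA with a PCR barcoding kit, per the labels' protocols, and no molecular identifiers are mentioned. The authors deposited 1 table of estimated counts, whole numbers without depth scaling. Minimap2, Salmon, GRCm39 and mm39 are named in the submitters' processing notes. The sources used here do not give versions, annotation, filters or strand, so reads shared by overlapping genes or close copies cannot be separated. Gene symbols were matched by identifier to a table of gene names (13711 of 15391 genes), and promoters came from RefSeq, GRCm38.p6.

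Members and lists were chosen with earlier results of these data known. Counts were summed per group and scaled by TMM factors (edgeR 4.0.16, R 4.3.3) after filterByExpr with a minimum count of 10, which left 8773 genes. Log2 ratios carry exact Clopper-Pearson intervals at 95%. The interaction used 0.5 added counts and a normal approximation. Each comparison was fitted on the whole table. A fold against 0 counts used 3 counts over the group. Promoter strings were searched on both strands. The rule was tested on simulated data. All 34 members are named, Larp1 and Rpl22 serve as checks, and of the other pathway genes all that were called, or the 4 largest. Rpl22 had a log2 ratio of -0.18 in IP with shLarp1. Alternatives were other scalings (DESeq2 1.42.0, upper-quartile, total counts), no filter, a size limit of 25% in place of 50%, edgeR and DESeq2 on the 12 columns, the replicate block and leaving out each column.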

Additional observations from a re-analysis of the deposited data

Results flagged for a closer look

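Clta was lower in IP and higher in input with shLarp1, so that its IP and input ratios point in opposite directions. The difference between these ratios was -1.67 on the log2 scale, and it was not tested over replicates. It was not called with total counts. In each fraction all 3 shLarp1 columns lay on that side of all 3 control columns. Columns were separated for 43.2% of all genes in IP and 24.2% in input. The columns of a group were counted as 1 sample, so their separation is no replicate check. The IP interval (-0.36 to -0.12) includes 0 with upper-quartile factors, which raise every IP ratio by 0.13. The input side rests on 12 and 38 counts.

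Sncg was higher in IP and lower in input with shLarp1, again without overlap between columns, with a log2 difference of 0.18 that was not tested over replicates. With the size factors of DESeq2 the difference was -0.02 and the input ratio 0.08, so that the opposite directions depend on the scaling.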

How the results depend on the processing

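Counts of calls among the members moved with the scaling. With the size factors of DESeq2 or upper-quartile factors 1 member (Clta) was called higher in input, beside 181 and 117 of all genes. Upper-quartile factors gave 9 and 15 members called higher in IP over input with the control virus and shLarp1. Over all genes these counts were 1293 and 1328. With total counts 1 (Napa) was called lower in input and 1 higher for the interaction, and 0 lower for the interaction. Over all genes total counts gave 203 lower in input, and 396 higher and 139 lower for the interaction. The members' median of IP over input with shLarp1 was then 3.36, beside 2.26 over all genes. Without the filter 1 (Sv2a) was called lower in IP. With a limit of 25% in place of 50% for the size of a change, 1 (Stx1a) was called lower in IP, 1 higher (Clta) and 1 lower (Napa) in input, and 1 higher (Napa) for the interaction. On the 12 columns edgeR without a replicate block called 2 higher and 2 lower in IP, 1 and 1 in input, and 2 higher for the interaction. With the replicate block it called 2 and 2, 1 and 1, and 1 higher for the interaction. Same-numbered columns of different groups correlated at -0.159 to 0.0871 in their deviations, and those of different number at -0.118 to 0.142. Columns of a group differed about as sampling alone would make them, so these values cannot show whether the numbers pair the samples. DESeq2 called 1 higher (Cltc) and 2 lower in IP and 1 and 1 in input. Leaving out each column gave 0 to 1 higher and 0 to 1 lower in input and 0 to 1 higher and 0 to 1 lower for the interaction. It gave 16 to 20 and 19 to 26 higher for IP over input with the control virus and shLarp1; without an IP column the filter also removed Syt1, Stx1a, Syn2, Sv2b and Amph. No value called by the 1.5-fold rule changed sign under these settings. The depth of input, with a median of 9.5 and 12 counts per member, limits every comparison that uses it.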
